A study of Mus musculus with 57 samples.

Results

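H3K27ac, an acetylation of histone H3, was compared between 12 h and 6 h of Wnt pathway activation in mouse epiblast stem cells (EpiSCs) that lack Wnt3 (Wnt3KO). The members are the 11636 regions of the 12 h list and the 10225 regions of the 6 h list, 21861 of the 591931 regions in the 32 peak lists of the series. A region is a peak called by the authors in 1 library, and a region was taken as listed at the other time when a region of that list shared at least 1 bp with it. By this rule 3928 regions of the 12 h list were listed at 12 h only, which is 33.8% of the list (95% Wilson interval 32.9% to 34.6%). The 6 h list held 2350 regions listed at 6 h only, 23.0% of it (22.2% to 23.8%).

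EpiSCs are cell lines grown from the epiblast of pre-gastrulation mouse embryos, here taken at E6.0. All cultures were kept in Fgf-basic, Activin A and IWP2, which blocks the secretion of Wnt proteins, and were moved off feeder cells (MEFs) onto fibronectin before use. For stimulation IWP2 was withdrawn and CHIR99021 (labelled Chiron, 3 µM), an inhibitor of the kinase GSK3, was added for 6 h, 12 h or 72 h in Wnt3KO cells and for 24 h in wild-type (wt) cells. H3K27ac was measured with 1 library at each time in Wnt3KO cells (0, 6, 12 and 72 h) and in wt cells at 0 h, and with 2 libraries in wt cells at 24 h. The matched H3K4me3 libraries were 1 at 12 h and 1 at 6 h, in Wnt3KO cells. The ATAC-seq lists used beside them came from wt EpiSCs after 48 h of CHIR99021 and at 0 h, with 1 library each. A further ATAC-seq list came from the posterior part of wt embryos at E7.5, also with 1 library. For Polycomb chromatin in Wnt3KO cells, Ring1b had 2 libraries at 0 h. H3K27me3 of the same time had 1 library at 12 h and 1 at 6 h. The labels give no account of how the Wnt3 alleles were made or whether the Wnt3KO cells are 1 clone.

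Depth is unknown, as peak lists carry no counts, and a region that is not listed may have been missed. In all, the 12 h regions covered 6.79 Mb with a median length of 490 bp, and the 6 h regions covered 5.43 Mb with a median of 445 bp. With 1 library at each time no test was possible, and the intervals cover counting error only. The nearest measure of how far 2 libraries of 1 condition differ comes from wt cells at 24 h, where 16.4% of the regions of replicate 1 were not listed in replicate 2 and 9.73% in the other direction. The labels do not say whether those replicates were separate cultures. Peak names show that the 12 h and 6 h lists of H3K27ac and H3K4me3 came from 1 processing folder of the authors, and the 0 h and 72 h lists of H3K27ac from another, so that folder and time cannot be told apart across them.

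Acetylated H3 marks promoters and enhancers in use, while H3K4me3 sits mostly at promoters, so that a region with H3K27ac and no H3K4me3 is commonly read as a distal element. In canonical Wnt signalling the inhibition of GSK3 lets β-catenin accumulate and bind TCF/LEF transcription factors on DNA. In the mouse epiblast this pathway switches on negative feedback genes such as Axin2 and the genes of the primitive streak, the structure from which mesoderm and endoderm form, and Wnt3 is the ligand that starts it in the embryo.

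H3K27ac was followed at 38 gene loci of 5 groups (Wnt feedback, primitive streak, epiblast, TGF-beta and FGF, other cell types), each a window of 20 kb on both sides of an approximate start. A region listed at 12 h only lay within 500 bp of that start at 5 of the Wnt feedback and streak genes, and the promoters of these 5 are shown because the 12 h call falls beside them. The sequences are the 250 bases before the start in RefSeq (GRCm38.p6, 5′ to 3′ on the strand of the gene), and all 5 genes were found there. Lef1 has 4 starts in that table, of which the most upstream is shown. The core of the TCF/LEF motif, CTTTGA or TCAAAG on the other strand, was searched without mismatches and is printed in capitals.
Axin2 (chr11, plus strand): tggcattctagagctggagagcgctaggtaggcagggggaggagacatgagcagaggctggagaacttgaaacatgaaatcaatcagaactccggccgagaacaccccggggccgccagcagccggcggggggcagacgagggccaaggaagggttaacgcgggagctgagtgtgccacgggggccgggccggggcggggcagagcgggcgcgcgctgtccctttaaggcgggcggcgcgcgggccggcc
Lef1 (chr3, plus strand): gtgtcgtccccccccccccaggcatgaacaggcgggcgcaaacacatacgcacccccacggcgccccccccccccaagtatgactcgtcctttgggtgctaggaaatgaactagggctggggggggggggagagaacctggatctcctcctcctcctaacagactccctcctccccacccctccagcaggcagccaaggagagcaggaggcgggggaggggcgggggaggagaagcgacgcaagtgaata
T (chr17, plus strand): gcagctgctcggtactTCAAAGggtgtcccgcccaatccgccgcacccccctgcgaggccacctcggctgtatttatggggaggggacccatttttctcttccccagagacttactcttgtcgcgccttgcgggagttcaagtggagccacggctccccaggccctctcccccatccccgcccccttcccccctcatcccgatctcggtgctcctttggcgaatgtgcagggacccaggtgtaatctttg
Cdx2 (chr5, minus strand): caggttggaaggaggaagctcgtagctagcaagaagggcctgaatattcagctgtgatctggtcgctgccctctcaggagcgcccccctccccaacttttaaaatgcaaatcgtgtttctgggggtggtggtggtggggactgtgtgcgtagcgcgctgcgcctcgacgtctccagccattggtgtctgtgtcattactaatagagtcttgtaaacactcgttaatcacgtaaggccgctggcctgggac
Evx1 (chr6, plus strand): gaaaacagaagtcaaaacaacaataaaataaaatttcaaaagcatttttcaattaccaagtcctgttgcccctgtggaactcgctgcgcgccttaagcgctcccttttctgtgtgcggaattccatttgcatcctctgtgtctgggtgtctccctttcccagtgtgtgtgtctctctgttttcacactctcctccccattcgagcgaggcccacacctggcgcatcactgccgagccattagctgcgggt
The motif was found once among the 5, in T, with its first base 234 bases before the start. It occurs in 13.8% of the 32851 mouse promoters of this length in the table. The regions beside these starts, in mm9 like all positions of regions here, were chr11:108781686-108782047 (Axin2), chr3:130813474-130813779 (Lef1), chr17:8626434-8626793 (T), chr5:148118049-148118486 (Cdx2) and chr6:52263909-52264265 (Evx1). Their coordinates are of another build than the sequences, so no base of a sequence was assigned to a region.

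Of 9 loci of Wnt feedback and signalling, 3 had more H3K27ac regions at 12 h than at 6 h, 1 had as many, and 5 had none at either time. Within 20 kb of their starts lay 10 regions at 12 h and 3 at 6 h. Of the 10, 7 were listed at 12 h only (70.0%, interval 39.7% to 89.2%), and of the 3, 0 at 6 h only. The share at 12 h only was 33.8% among all 12 h regions, but it was higher among weak ones. In deciles 8, 9 and 10 of the 12 h list by fold enrichment (10 is the lowest) it was 52.3%, 58.4% and 64.0%. The 7 regions lay between percentiles 0.920 and 28.5 of fold enrichment in that list. Lef1, which encodes a DNA-binding partner of β-catenin, had 6 regions at 12 h that covered 2807 bp, against 1 region of 511 bp at 6 h. Of these 6, 5 were listed at 12 h only, of which 3 lay 73, 487 and 1494 bp from the start. Without Lef1 the other 8 loci held 4 regions at 12 h, 2 of them at 12 h only, and 2 at 6 h.

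Axin2, a scaffold of the complex that destroys β-catenin, had 2 regions at 12 h and 1 at 6 h. The shared one, chr11:108782934-108783626, lay at percentile 92.5 of fold enrichment in the 12 h list and 95.1 in the 6 h list. The one listed at 12 h only lay 25 bp from the start and 924 bp from the nearest 6 h region. Notum, a secreted enzyme that inactivates Wnt proteins, had 1 region, at 12 h only, 12860 bp from its start. That region lay at percentile 0.920 of the 12 h list and was listed at 0 h in both genotypes. As 4 other genes lie within 20 kb of Notum in the RefSeq table, the gene of the region was not determined. Nkd1, a feedback inhibitor, had 1 region at both times. No region was listed at either time at Sp5, Tcf7, Dkk1, Wnt3 and Wnt3a. Of these, Wnt3 is the gene that the cells lack. At 72 h Sp5 had 2 regions and Tcf7 had 1, while Dkk1, Wnt3 and Wnt3a had 0. In wt cells at 24 h all 9 loci had regions in both replicates, whose lists are the longest of H3K27ac.

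At 11 loci of primitive streak genes lay 14 regions at 12 h and 3 at 6 h. More regions were listed at 12 h at 5 of these loci, as many at 1, and none at either time at 5. At 12 h only were 11 of the 14 (78.6%, 52.4% to 92.4%), and at 6 h only 1 of the 3. Among all regions the shares were 33.8% of the 12 h list and 23.0% of the 6 h list. The 11 lay between percentiles 1.95 and 60.3 of fold enrichment in the 12 h list. Over that range the share at 12 h only rose from 22.9% in decile 4 to 64.0% in decile 10, the lowest. Cdx2, a homeobox gene of the posterior body, had 4 regions at 12 h covering 1639 bp, and 0 at 6 h, at 0 h and at 72 h. Without Cdx2 the other 10 loci had 10 regions at 12 h, 7 of them at 12 h only. Evx1, a homeobox gene of the posterior streak, had 3 regions at 12 h covering 1009 bp, 0 at 6 h and 0 at 0 h, and 1 at 72 h. T (Brachyury), the T-box factor of nascent mesoderm, had 1 region at 12 h, at 447 bp from its start, and none at 6 h, 0 h or 72 h.

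Fgf8, a growth factor of the streak, had 1 region at 12 h only, 6105 bp away, which was listed at 0 h in both genotypes. With 2 other genes within 20 kb of Fgf8 in the RefSeq table, the gene of this region was not determined. Tbx6, a T-box factor of the presomitic mesoderm, had 4 regions at 12 h, of which 1 was not listed at 6 h, and 5 other genes within 20 kb of it in the RefSeq table, so that the gene of each region was not determined. Eomes, another T-box factor, had 1 region at each time that lay 110 bp apart and so shared no base. Mixl1, Gsc, Foxa2, Msgn1 and Mesp1 had none at either time. In wt cells at 24 h 10 of the 11 streak loci, all but Foxa2, had regions in both replicates.

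At 8 loci of epiblast genes, 1 had more regions at 12 h, 2 had more at 6 h, 3 had as many at both times and 2 had none. They held 9 regions at 12 h, of which 4 (44.4%, 18.9% to 73.3%) were listed at 12 h only, and 12 regions at 6 h, of which 7 (58.3%, 31.95% to 80.7%) were listed at 6 h only. The shares were 33.8% at 12 h only among all 12 h regions and 23.0% at 6 h only among all 6 h regions. Otx2, a homeobox factor of the anterior epiblast, had 1 region of 340 bp at 12 h, against 4 regions of 1498 bp in all at 6 h. It had 2 regions at 0 h and none at 72 h. The region at 12 h lay 103 bp from the nearest at 6 h. Without Otx2 the other 7 loci held 8 regions at each time, with 3 at 12 h only and 3 at 6 h only, so the group's difference rests on Otx2. Dnmt3b, a DNA methyltransferase, had 0 regions at 12 h and 1 at 6 h, 250 bp from its start.

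At Nanog, a pluripotency factor, 2 regions were shared, and each time had 1 more of its own, 176 bp apart. Pou5f1, which encodes Oct4, had 1 region at each time, and they lay 10531 bp apart. Sox2, a further pluripotency factor, had 3 regions at 12 h, of which 1 was listed at 12 h only, and 2 at 6 h. When regions within 1 kb of each other counted as listed, the share at 6 h only in the epiblast loci was 25%, and 4 of the 7 regions lay within that distance of a 12 h region.

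At 5 genes of TGF-beta and FGF signalling, 1 of 7 regions was listed at 12 h only (Dusp6, a phosphatase that damps FGF signalling) and 1 of 7 at 6 h only (Lefty1, an inhibitor of Nodal). Regions at Id1 and Id3 were shared by both times. Sox17 and Gata4 (endoderm), Pax6 (neural ectoderm) and Col1a1 and Thy1 (fibroblasts, such as feeder cells) had no region at either time, while 6 of the 8 epiblast loci had at least 1.

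**Figure D1:**
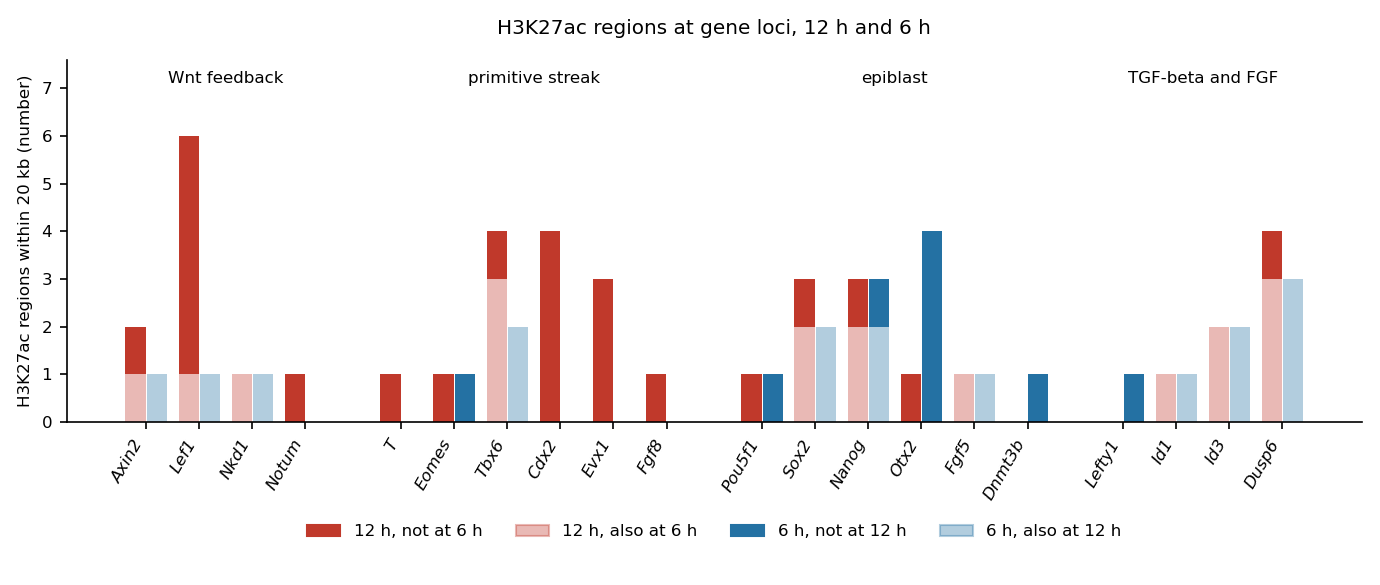
Number of H3K27ac regions (y axis) within 20 kb of the placed start of each gene with at least 1 region, at 12 h (left bar) and at 6 h (right bar), 1 library each. Dark parts are regions with no overlap at the other time: they reach 5 at Lef1, 4 at Cdx2 and 3 at Evx1 at 12 h, and 4 at Otx2 at 6 h.

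The regions listed at 12 h only at the Wnt feedback and streak genes, 18 in all, were each listed in both wt replicates at 24 h. Of these 18, 9 were not listed in wt cells at 0 h, 1 of the 7 at Wnt feedback genes and 8 of the 11 at streak genes. In Wnt3KO cells at 0 h, 3 of the 18 were listed. At 72 h, 5 of the 18 were listed, 4 of them at Wnt feedback genes and 1 at Evx1. H3K4me3 was listed over 17 of the 18 at 12 h. At the streak genes 8 of the 11 lay on a region of Ring1b, a subunit of Polycomb repressive complex 1, listed in at least 1 of its 2 Wnt3KO libraries at 0 h, and 1 of the 7 at the Wnt feedback genes did. These 8 were the 4 at Cdx2, the 3 at Evx1 and the 1 at T. They were also the 8 not listed in wt cells at 0 h. Regions of 1 locus are neighbours, so neither count is of independent members.

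Among all 12 h-only regions with H3K4me3, 93.3% were listed in both wt replicates at 24 h, so the count of 18 is near that share. The same class was listed in 59.0% in wt cells at 0 h, in 56.8% in Wnt3KO cells at 0 h and in 49.9% at 72 h, and 80.7% of all 12 h-only regions overlapped H3K4me3. Each taken alone, the 2 Ring1b libraries at 0 h overlapped 1.45% and 1.798% of the class.

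The 18 were of low to middle rank in the 12 h list. They had a fold enrichment over local background, as the authors' peak caller gives it, of 4.73 to 8.29, which placed them between percentiles 0.920 and 60.3 of the list. The highest was at Cdx2, chr5:148115558-148115992. Of the 7 regions at epiblast genes listed at 6 h only, 3 were listed in both wt replicates at 24 h, 5 in wt cells at 0 h, 3 in Wnt3KO cells at 0 h and 0 at 72 h. The 4 at Otx2 were in neither wt replicate at 24 h. H3K4me3 was listed over 6 of the 7. Of all 6 h-only regions with H3K4me3, 87.4% were listed in both wt replicates, 55.8% in wt cells at 0 h, 54.5% in Wnt3KO cells at 0 h and 45.6% at 72 h. Without H3K4me3 these shares were 44.8%, 29.5%, 19.7% and 5.34%.

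**Figure D2:**
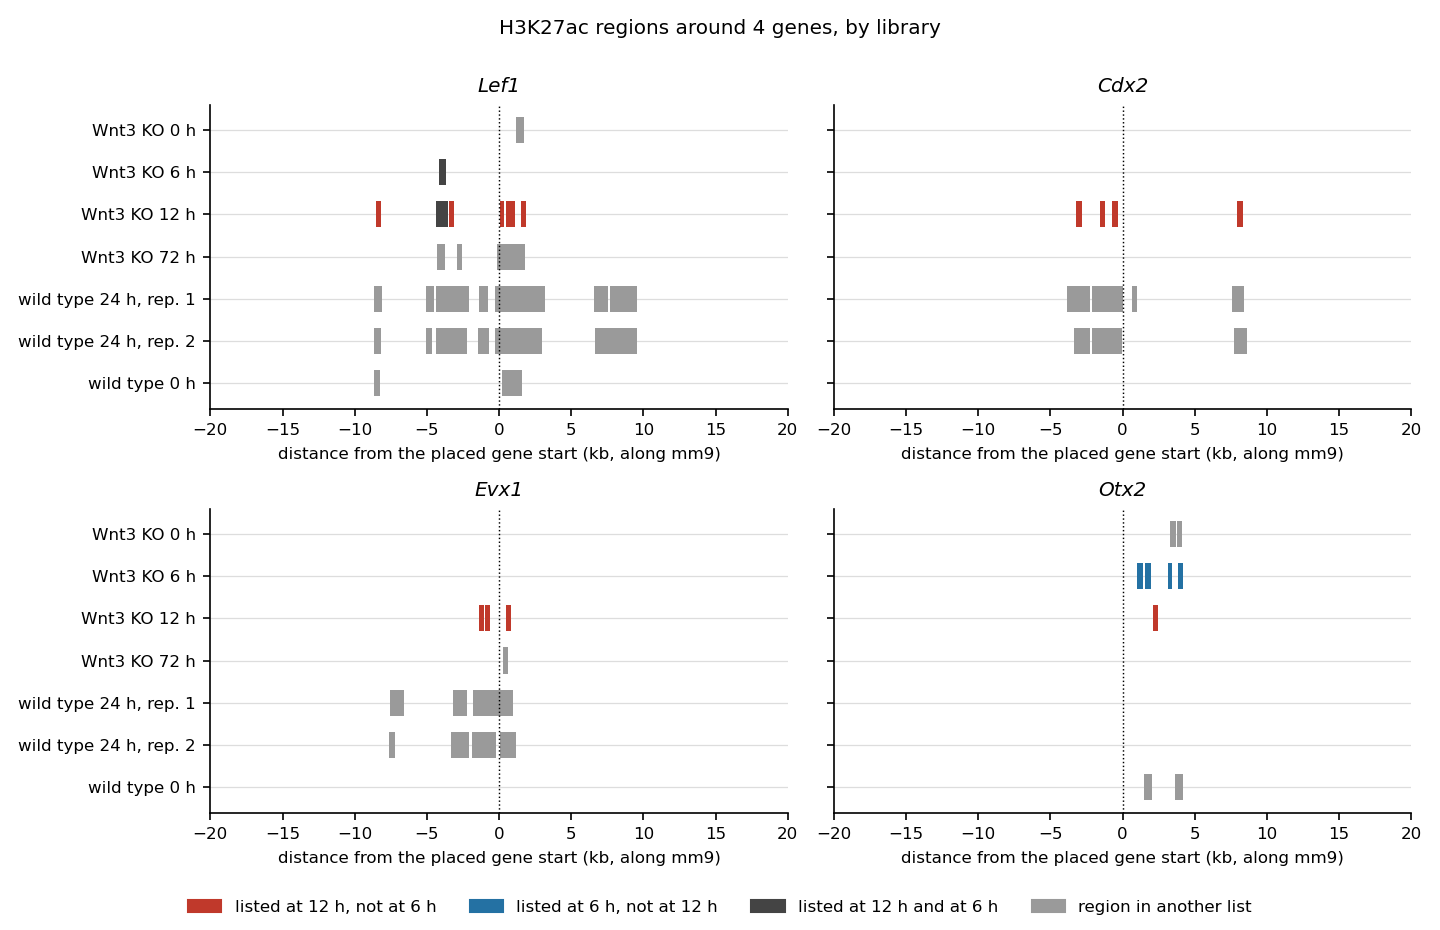
H3K27ac regions of each library (rows) drawn to scale against the distance in kb from the placed start of the gene (x axis, along the mm9 chromosome) for Lef1, Cdx2, Evx1 and Otx2. Red regions were listed at 12 h and not at 6 h, blue ones at 6 h and not at 12 h, black ones at both, and grey ones are regions of the other lists. The red regions at Lef1, Cdx2 and Evx1 overlap regions of both wild-type libraries at 24 h, where Otx2 has none.

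Across the genome, the regions listed at 1 time only were split by H3K4me3 at the same time. At 12 h only, 3170 of 3928 overlapped H3K4me3 (80.7%, 79.4% to 81.9%), and at 6 h only, 1488 of 2350 did (63.3%, 61.4% to 65.2%). Among regions of both times the shares were 94.2% in the 12 h list and 94.3% in the 6 h list. At nearly all of these places H3K4me3 was listed at both times: 97.4% of the 12 h-only regions with H3K4me3 also overlapped H3K4me3 at 6 h, and 96.2% of the 6 h-only ones overlapped it at 12 h.

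Regions without H3K4me3 at the same time are called distal from here on, with no distance to a gene measured. Some of them overlapped H3K4me3 of Wnt3KO cells at another time. Of those at 12 h only, 14.9% did at 0 h, 9.89% at 6 h and 16.0% at 72 h. Of those at 6 h only, 7.89% did at 0 h, 4.64% at 12 h and 8.93% at 72 h. Distal regions were shared less often between the times. Of these, 63.1% of the 12 h regions (758 of 1202) were not listed at 6 h, and 66.0% of the 6 h regions (862 of 1307) were not listed at 12 h. With H3K4me3 at the same time, the shares were 30.4% of the 12 h regions and 16.7% of the 6 h regions. H3K4me3 itself differed less between the times, with 7.23% of its regions listed at 12 h only and 5.12% at 6 h only.

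Regions without H3K4me3 that were listed at 12 h only were found again in wt cells more often than those at 6 h only. Of the 758 at 12 h only, 80.3% and 76.6% overlapped the 2 wt replicates at 24 h, a mean of 78.5% ± 2.61 (SD, n = 2). Of the 862 at 6 h only, 50.5% and 49.1% did, a mean of 49.8% ± 0.984 (SD, n = 2). The SD covers the wt libraries only, not the single libraries at 12 h and 6 h. With each H3K27ac list cut to its 10161 best regions by −log10 p, the means were 44.9% for 12 h only and 20.6% for 6 h only, in the same order but much lower. The wt lists at 24 h are the longest H3K27ac lists, with 29056 and 27422 regions.

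In Wnt3KO cells at 72 h few of the distal regions were listed. At 72 h, 14.8% (12.4% to 17.5%) of those at 12 h only were listed, and 5.34% (4.02% to 7.04%) of those at 6 h only. At 0 h, before stimulation, 29.7% of those at 12 h only and 19.7% of those at 6 h only were listed. Neither the 0 h nor the 72 h list held 65.8% of those at 12 h only and 78.8% of those at 6 h only. Within this set, 335 regions at 12 h only (44.2% of the class) and 245 at 6 h only (28.4%) were listed in both wt replicates at 24 h. Listed at 72 h and not at 0 h, and also in both wt replicates, were 30 distal regions at 12 h only (3.96%) and 12 at 6 h only (1.39%).

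Distal regions of both times had a higher share in the 0 h list (59.2% of those of the 12 h list, 59.1% of those of the 6 h list) than in the 72 h list (22.5% and 21.8%). In regions with H3K4me3 the times differed less. At 72 h, 49.9% of the 12 h-only and 45.6% of the 6 h-only regions with H3K4me3 were listed, against 82.8% of the 12 h and 82.5% of the 6 h regions of both times. At 0 h the shares were 56.8% for 12 h only and 54.5% for 6 h only. In the wt replicates at 24 h they were 95.3% and 94.6% for 12 h only, and 90.7% and 88.6% for 6 h only.

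**Figure D3:**
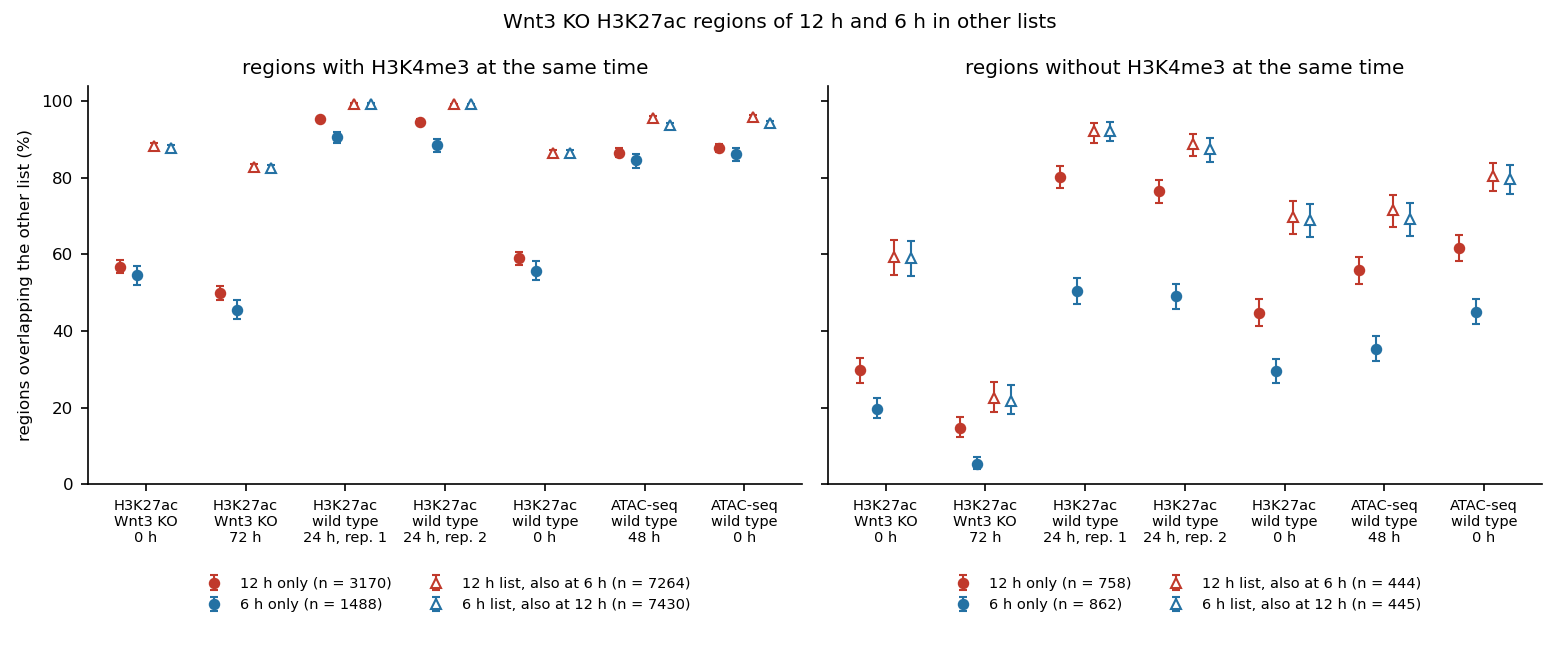
Share of H3K27ac regions (y axis, %) of the 12 h list (red) and the 6 h list (blue) that overlapped each of 7 other lists (x axis), for regions with H3K4me3 at the same time (left) and without (right). Filled points are regions listed at 1 time only, open triangles regions of both times, and bars 95% Wilson intervals. Without H3K4me3 the 12 h-only points lie above the 6 h-only points in all 7 lists, for example 14.8% against 5.34% at 72 h.

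Open chromatin differed in the same direction. Of the distal regions at 12 h only, 55.9% overlapped an ATAC-seq region of wt EpiSCs at 48 h and 61.7% one at 0 h. Of those at 6 h only, 35.4% did at 48 h and 45.0% at 0 h. In neither ATAC-seq list were 238 of the 758 at 12 h only (31.4%) and 428 of the 862 at 6 h only (49.7%). In the posterior part of E7.5 embryos, 35.9% of the distal regions at 12 h only and 21.2% of those at 6 h only were open. With H3K4me3, the shares in that embryo library were 75.1% for 12 h only and 75.3% for 6 h only.

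A part of the regions at 6 h only was found in none of the other 6 H3K27ac lists. This held for 325 of the 862 distal ones (37.7%) and 89 of the 1488 with H3K4me3 (5.98%). At 12 h only it held for 100 of the 758 distal ones (13.2%) and 93 of the 3170 with H3K4me3 (2.93%). Few of the regions lay on a region of an input library: 6 of the distal ones at 12 h only and 4 of those at 6 h only did so for either of the 2 inputs.

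Regions at 1 time only were short and ranked low. Their median length was 375 bp with H3K4me3 and 336 bp without at 12 h only, and 348 bp and 333 bp at 6 h only, while regions of both times had medians of 597 bp and 429.5 bp in the 12 h list, and 505.5 bp and 402 bp in the 6 h list. In order of fold enrichment within its own list, the median 12 h-only region stood at percentile 31.1 with H3K4me3 and 22.0 without, and the median 6 h-only region at 29.2 and 29.5. The highest decile of the 12 h list held 17 regions not listed at 6 h (1.46%), and the highest decile of the 6 h list 53 not listed at 12 h (5.18%, 3.98% to 6.71%). In the highest deciles of the wt replicates 0 regions were missing from the other. These deciles are not of like strength, as their lowest folds were 17.1 and 17.0 in the wt replicates, 11.7 at 12 h and 10.7 at 6 h. In the lowest decile, 64.0% of the 12 h and 44.4% of the 6 h regions were not listed at the other time, while in the wt replicates it was 55.0% and 36.3%.

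**Figure D4:**
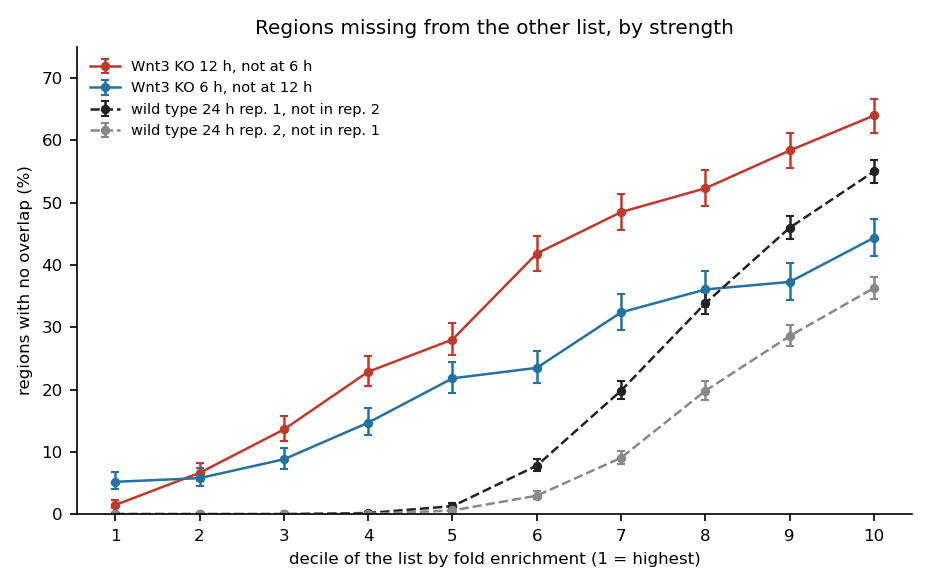
Share of regions (y axis, %) with no overlap in the other list, by decile of the list in order of fold enrichment (x axis, 1 is the highest), with 95% Wilson intervals. In deciles 2 to 10 the 12 h list (red) reaches 64.0% and lies above the 6 h list (blue), but in the first decile 1.46% of the 12 h regions and 5.18% of the 6 h regions had no overlap; the wild-type replicates (dashed) stay near 0 in their upper deciles.

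The overlap with other lists differed along the range of fold enrichment. Each class was split into quintiles by fold enrichment. Of the distal regions at 12 h only, the wt replicates at 24 h listed 87.5% and 79.6% in the highest quintile and 79.6% and 75% in the lowest. Of the distal regions at 6 h only, they listed 43.9% and 45.1% in the highest quintile and 60.1% and 56.6% in the lowest. At 0 h in Wnt3KO cells the highest quintile of the distal 12 h-only regions was listed in 34.9% and the lowest in 26.97%, while for 6 h only it was 17.3% and 28.3%. Of the 12 h-only regions with H3K4me3, the replicates listed 97.8% and 97.9% in the highest quintile and 90.9% and 91.2% in the lowest. The shares of those at 6 h only lay between 87.2% and 91.6% in all 5 quintiles.

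**Figure D5:**
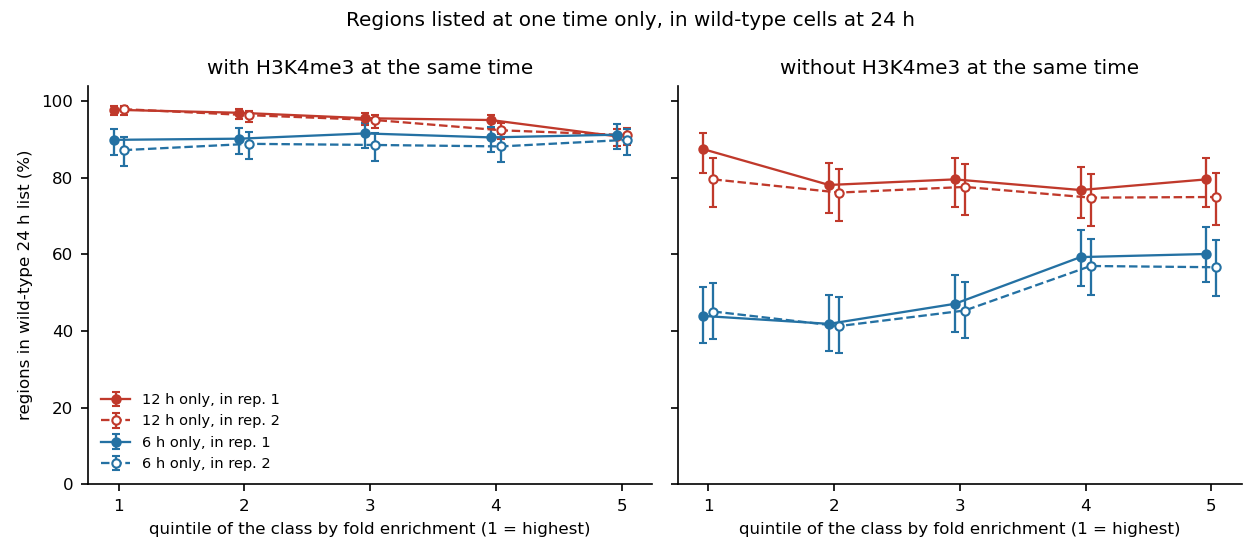
Share of the regions listed at 1 time only (y axis, %) that overlapped each wild-type replicate at 24 h, by quintile of the class in order of fold enrichment (x axis, 1 is the highest), with H3K4me3 at the same time (left) and without (right). Bars are 95% Wilson intervals. On the right, 12 h-only regions (red) lie between 74.8% and 87.5% and 6 h-only regions (blue) between 41.3% and 60.1%, with the higher blue values in the weaker quintiles.

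Some regions missed the other list by a short distance. Within 1 kb of a region of the other time lay 35.1% of the 12 h-only regions with H3K4me3 and 23.0% of those without, against 44.0% of the 6 h-only regions with H3K4me3 and 17.98% of those without. If such regions counted as listed, 22.7% of the 12 h list and 15.1% of the 6 h list remained at 1 time only. With lists cut to equal length, 29.4% of the 12 h list and 26.9% of the 6 h list were at 1 time only. The distal regions at 6 h only were the most isolated, with a median distance of 46.9 kb to the next region of the 12 h list. For the distal ones at 12 h only the median distance to the 6 h list was 25.02 kb.

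Where exactly 1 region of each list overlapped (6627 pairs), the 12 h region was the longer one in 62.8% (61.6% to 63.9%), with a median length of 575 bp, against 497 bp at 6 h. The median ratio of the lengths, 12 h over 6 h, was 1.099. For the 357 pairs without H3K4me3 at either time the 12 h region was longer in 54.1% (48.9% to 59.2%), with a median length of 437 bp, against 402 bp at 6 h. These intervals take pairs as the unit, and with 1 library at each time they cannot tell time from library. The 2 summits of a pair lay a median of 79 bp apart.

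The strongest regions of each class were named by fold enrichment, leaving out those within 100 kb of an input region. At 12 h only and without H3K4me3 the first was chr10:17516008-17516459, with a fold of 13.6. It lay 72.6 kb from the nearest 6 h region and was listed at 72 h and in both wt replicates at 24 h, but at 0 h in neither genotype. The second, chr5:127804561-127805004 with a fold of 12.1, was listed in 1 wt replicate at 24 h and in no other H3K27ac list. Both were open in wt EpiSCs at 48 h, at 0 h and in the E7.5 posterior library.

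At 6 h only and without H3K4me3 the first was chr4:43505661-43506090, with a fold of 16.8, which lay 0.193 kb from a 12 h region. The fourth, chr11:103003069-103003754 with a fold of 15.05, was listed in both wt replicates at 24 h but in no ATAC-seq list of EpiSCs. The last of the 5, chr10:59262611-59263022 with a fold of 14.1, was in none of these lists. With H3K4me3, the first at 12 h only was chr12:81536186-81536676, with a fold of 14.1 and listed at 0 h in both genotypes. The first at 6 h only was chr7:28473883-28474455, with a fold of 21.4 and likewise listed at 0 h in both. All 10 of the named regions with H3K4me3, 5 for each time, were listed in both wt replicates at 24 h. Among all regions with H3K4me3 that share was 93.3% at 12 h only and 87.4% at 6 h only.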

How the data were processed

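H3K27ac and H3K4me3 ChIP-seq and ATAC-seq libraries were used as the authors' deposited peak lists in narrowPeak layout, 1 per library, in mm9. Per the submitters' processing notes, MACS2 2.1.0 and SAMtools 0.1.19 were used throughout, with Bowtie 1.1.0 in ChIP-seq and with Bowtie2 2.1.0 and cutadapt 1.8.1 in ATAC-seq. No tools are named there for H3K27ac in wild-type cells at 24 h. The deposited fold enrichment (a ratio over local background) and the deposited −log10 p and −log10 q are the authors' peak caller's own values, and they served to order or filter regions within a list. Only the lowest folds of the highest deciles were set side by side across lists. The authors' peak names show a read extension of 300 bp and 100 kb for the local background.

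Of 32 lists, 30 were used. The labels of the other 2, of wild-type H3K4me3, contradict each other. The 25 4C-seq samples are not analysed here. No list held peaks that overlapped each other. Overlap was 1 bp or more. Fold enrichment percentiles are ranks within 1 list. Shares carry 95% Wilson intervals, and the overlap code was tested on simulated regions.

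Gene windows of 20 kb on each side were placed in mm9 from memory of where these genes lie, as no annotation of that build was used, and each of the 38 was checked to have H3K4me3 or a Polycomb region within 3 kb of the placed start. Numbers of neighbouring genes come from the RefSeq table of GRCm38.p6. The named regions are the 5 of highest fold in each class, leaving out those within 100 kb of an input region. Regions on chromosome 18 are not reported here by position. The members, gene lists and alternatives were chosen with earlier results of these data known. The gene loci's alternatives were added after seeing the data. The other alternatives were a shared length of 50% or more of the smaller region, only regions with −log10 q of 5 or more, lists of equal length, a gap of up to 1 kb, regions near input left out and each wild-type replicate left out. Analyses used Python 3.11.15 with pandas 2.3.3, numpy 2.4.6 and scipy 1.17.1.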

Additional observations from a re-analysis of the deposited data

How the results depend on the processing

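When the smaller region had to be covered by 50% or more, 36.9% of the 12 h list and 26.3% of the 6 h list were at 1 time only. A gap of up to 1 kb gave 22.7% and 15.1%. Lists of equal length (10161 regions) gave 29.4% and 26.9%, where the wild-type replicates gave 6.57% and 5.58%. That cut keeps only the best-ranked part of the wild-type lists (29056 and 27422 regions). It keeps most of the 12 h list (11636) and nearly all of the 6 h list (10225). The wild-type shares at equal length are therefore not a like-for-like measure of replicate difference. H3K4me3 overlapped 83.1% of the 12 h-only and 66.8% of the 6 h-only regions with equal lengths, and 57.0% of the 6 h-only ones with the gap. The share of distal 12 h-only regions in wild-type cells at 24 h was 75.6% with the 50% overlap, 44.9% with equal lengths and 81.2% with the gap, and that of distal 6 h-only regions 47.0% with the 50% overlap and 20.6% with equal lengths. Without one wild-type replicate these shares ranged from 76.6% to 80.3% and from 49.1% to 50.5%. At streak loci the 12 h-only share was 92.9% with the 50% overlap and 100.0% with windows of 10 kb, and the 6 h-only share at epiblast loci was 25% with the gap. The other 51 values stayed within the counting interval or replicate spread of the value reported. In the 4 genome-wide pairs of 12 h and 6 h shares the order was as reported under each alternative run. At the gene loci the alternatives were run for 1 time only. The cause of the shifts was not tested, but equal lengths leave fewer wild-type regions by construction. No paired analysis was possible because the H3K27ac groups compared (Wnt3KO at 12 h and at 6 h) have 1 library each. Depth is unknown, so a region that was not listed sets no limit on its signal.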

Other observations

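The homeobox genes of the 4 Hox clusters, which pattern the body axis, carried few H3K27ac regions at either time in Wnt3KO cells. Each cluster was taken as 1 window whose mm9 position came from memory, as for the gene loci. The HoxA window spans 120 kb and holds 16 regions of the first Ring1b library of Wnt3KO cells at 0 h, used as a check of the position. That of HoxB spans 190 kb with 12 Ring1b regions, that of HoxC 130 kb with 12, and that of HoxD 110 kb with 11. HoxA had 2 regions at 12 h, both at 12 h only, and 1 at 6 h, which was at 6 h only. HoxB had 1 region, shared by both times, HoxC had 0 at each time, and HoxD had 0 at 12 h and 1 at 6 h. At 72 h the clusters HoxA to HoxC had 3 regions each and HoxD had 4. In Wnt3KO cells at 0 h HoxB had 1 region and the other clusters 0. The wild-type replicates at 24 h, whose lists are the longest, had 19 and 15 regions at HoxA and 20 and 18 at HoxB. They had 6 and 5 at HoxC, and 10 and 8 at HoxD. In wild-type cells at 0 h HoxA had 4, HoxB 2, and HoxC and HoxD 0.

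H3K27ac regions on Polycomb chromatin were rare, and their share at 1 time only was near that of the whole lists. On regions of Ring1b listed in both Wnt3KO libraries at 0 h lay 85 regions of the 12 h list, 28 of them at 12 h only (32.9%, 23.9% to 43.5%), and 77 of the 6 h list, 21 of them at 6 h only (27.3%, 18.6% to 38.1%). Of these, 20 of the 28 and 12 of the 21 were listed in both wild-type replicates at 24 h. Among all regions at 12 h only, both replicates listed 93.3% of those with H3K4me3 and 74.3% of those without. Among all at 6 h only they listed 87.4% and 44.8%. On H3K27me3 of the same time lay 142 regions at 12 h, 42 of them at 12 h only (29.6%), and 119 at 6 h, 26 of them at 6 h only (21.8%).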
